A study of Rattus norvegicus with 5 samples.

Results

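The comparison set the parotid gland of 1 rat killed 10 min after an injection of isoproterenol against the parotid glands of 2 rats injected with normal saline. The parotid is the salivary gland in front of the ear, and its secretory acinar cells make amylase and other saliva proteins. The 3 arrays are part of a series of 5. Probes entered the comparison when any of the 3 arrays gave them a detection p-value under 0.01, and 10175 of the 22517 probes did. That p-value scores how often a negative control bead of the Illumina array matches or exceeds the probe's brightness. The smallest detection p-value of a probe over the 3 arrays reached 0.00995 just inside this limit and began at 0.01 just outside it. Of the probes that entered, 7400 had a gene symbol and named 7268 of the 13336 genes on the array.

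All rats were male Sprague-Dawley rats of 2 to 3 months, and both substances were given into the peritoneal cavity. The labels give the isoproterenol dose as 20 mg per g body weight, a unit that is in doubt because such a dose would be extremely large. The series also holds 1 rat each at 30 and 60 min after isoproterenol, whose values are printed beside those at 10 min. The sources used here state neither how long after saline the controls were killed, nor the hour of sampling, nor which slide each array was on. A difference between the 10 min rat and the controls therefore cannot be told apart from a difference between animals, handling or sampling times.

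Isoproterenol is an agonist of beta-adrenergic receptors. In acinar cells these receptors act through the G protein Gs on adenylyl cyclase, and the cAMP formed activates protein kinase A, which drives the release of stored amylase and phosphorylates the transcription factor CREB. CREB binds a DNA motif called the cAMP response element in the promoters of many immediate early genes, whose transcription needs no new protein. The comparison asks how far such transcripts, and the rest of the gland's messages, had moved at the first time sampled.

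Values are normalized log2 signals, so a difference of 1 is a 2-fold difference. Of all probes 40.4% were above background at 10 min, against 40.8% and 42.0% in controls 1 and 2. Sizes were read against the spread between the controls, because a single treated rat gives no spread of its own. The median absolute difference of the 10 min rat from the control mean was 0.191, and the median absolute difference between the controls was 0.197. A difference between 2 single arrays varies more than the difference of 1 array from a mean of 2, so these medians are not like for like. The median difference over all tested probes was 0.03 at 10 min. The defining parotid transcript Amy1, salivary amylase, read 15.12 at 10 min, against 15.05 and 15.09 in controls 1 and 2, and Aqp5, the acinar water channel, read 12.17 at 10 min, against 12.16 in each control. Amy1 reads near the top of the scale, 15.32, so it shows the tissue and not whether its level was stable.

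A fit with limma across all tested probes, with 1 mean per group, took its spread from the pair of controls and from a prior over all probes. It assumed that the lone 10 min rat varied as the controls did. It called 3 probes at a Benjamini-Hochberg adjusted p under 0.05, which is 0.0295% of the tested probes, and all of them were higher at 10 min. At an unadjusted p under 0.05 limma gave 620 probes, 6.09% of those tested, in either direction. A rule of size, with no test, counted probes that lay at least 2-fold beyond the nearer control. By it 25 probes stood above both controls, 0.246% of those tested, and 114 stood below both, 1.12%. The controls themselves lay at least 2-fold apart for 234 probes, or 2.3%. The count above rests on both controls being kept: it was 46 without control 1 and 72 without control 2. The count below was 153 without control 1 and 336 without control 2.

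**Figure D1:**
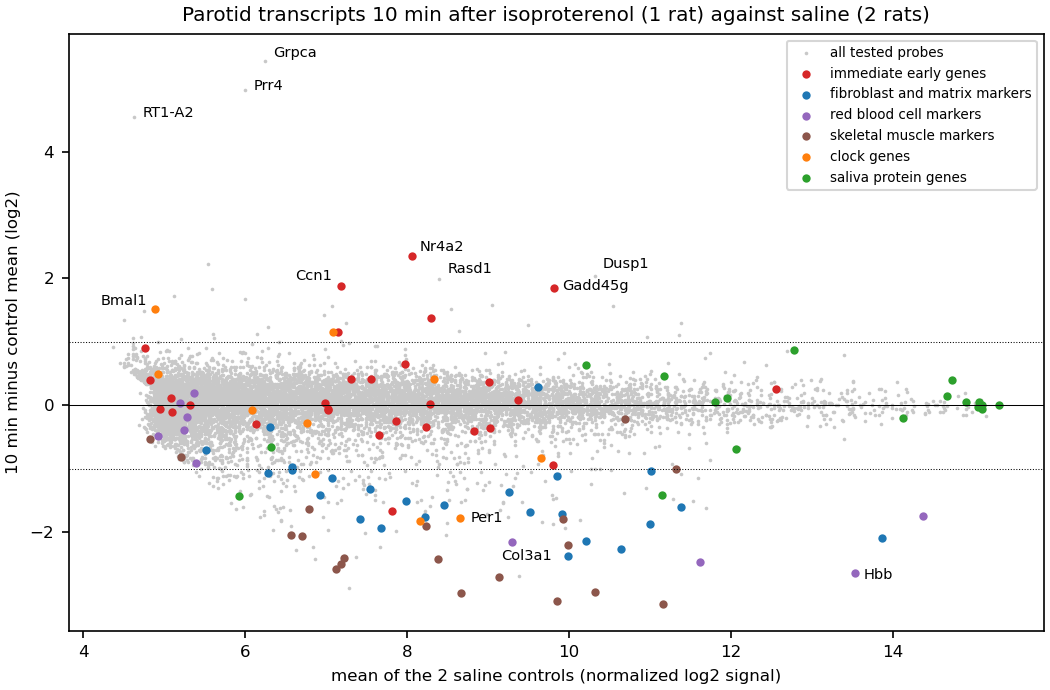
Each point is 1 of the 10175 tested probes, placed by the mean of the 2 saline controls (normalized log2 signal, horizontal) and by the 10 min rat minus that mean (log2, vertical). Dotted lines mark 2-fold differences, and coloured points are members of named gene lists. Grpca, Prr4 and RT1-A2 stand farthest above the other probes, fibroblast and red blood cell markers lie mostly below 0, and saliva protein genes lie mostly near 0; the skeletal muscle points far below 0 come from a high reading in control 1 alone.

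The known early responders were already above both controls in part, and promoters of 4 of them are given before the values. The promoters of Nr4a2, Rasd1, Ccn1 and Dusp1 are shown because these genes stood farthest above the controls among regulatory genes with a promoter that holds a core cAMP response element. Each sequence is from RefSeq, build GRCr8, and runs 5′ to 3′ on the gene's strand from 250 bases before to 50 bases after the annotated start. Capitals mark TGACG, the core of the element, or its reverse complement CGTCA. Nr4a2 lies at chr3:62104838-62105137 on the minus strand, Rasd1 at chr10:45267633-45267932 on the minus strand, Ccn1 at chr2:237225640-237225939 on the minus strand and Dusp1 at chr10:17184603-17184902 on the plus strand.
Nr4a2: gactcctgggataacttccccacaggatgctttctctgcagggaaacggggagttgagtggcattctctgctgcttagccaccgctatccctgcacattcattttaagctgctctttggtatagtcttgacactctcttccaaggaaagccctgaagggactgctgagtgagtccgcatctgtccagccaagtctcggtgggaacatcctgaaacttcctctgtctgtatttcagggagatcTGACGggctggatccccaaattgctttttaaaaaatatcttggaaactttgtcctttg
Rasd1: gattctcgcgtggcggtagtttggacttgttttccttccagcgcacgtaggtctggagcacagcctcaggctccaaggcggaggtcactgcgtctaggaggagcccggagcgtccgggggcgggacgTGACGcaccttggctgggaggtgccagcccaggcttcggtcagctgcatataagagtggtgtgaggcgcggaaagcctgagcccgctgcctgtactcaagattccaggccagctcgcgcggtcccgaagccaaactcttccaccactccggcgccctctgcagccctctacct
Ccn1: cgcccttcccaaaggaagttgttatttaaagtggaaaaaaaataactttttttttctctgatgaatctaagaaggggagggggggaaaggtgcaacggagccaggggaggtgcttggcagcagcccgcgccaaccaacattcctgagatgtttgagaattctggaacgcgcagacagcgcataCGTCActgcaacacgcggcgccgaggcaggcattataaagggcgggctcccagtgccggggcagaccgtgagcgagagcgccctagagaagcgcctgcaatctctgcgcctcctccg
Dusp1: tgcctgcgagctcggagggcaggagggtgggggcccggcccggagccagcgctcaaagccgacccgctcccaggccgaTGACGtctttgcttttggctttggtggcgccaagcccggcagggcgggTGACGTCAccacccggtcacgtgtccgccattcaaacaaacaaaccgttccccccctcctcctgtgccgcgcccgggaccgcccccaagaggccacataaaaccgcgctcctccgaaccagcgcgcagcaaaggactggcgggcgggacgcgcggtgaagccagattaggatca
The Dusp1 promoter holds the full palindrome TGACGTCA, which contains the core on both strands. Over all 33469 promoters in the table, 21.2% held TGACG on either strand and 1.83% held TGACGTCA. Of the 12 genes named as higher at 10 min, 10 had a promoter in the table, and 6 of these held TGACG. A match describes letters in this window and not a bound site.

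Among the immediate early genes, transcription factors and growth regulators induced without new protein, 29 of 42 listed genes were tested. Of these, 5 stood at least 2-fold above both controls and 0 stood at least 2-fold below, against 0.246% and 1.12% of all tested probes. Counting any distance, 14 of the 29 lay above both controls and 7 below both, against 38.2% and 30.6% of all tested probes. The list's median difference was 0.04, close to the 0.03 of all tested probes. At 30 and 60 min the median differences of the same list were 0.76 and 1.15. None of the listed early genes passed the limma test at 10 min.

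Nr4a2, an orphan nuclear receptor induced by cAMP, read 10.42 at 10 min, against 7.52 in control 1 and 8.60 in control 2. It lay 3.54-fold above the nearer control and differed from the control mean by 2.36 ± 0.48 (SE), with a limma adjusted p of 0.435. The controls were themselves 1.08 apart. At 30 and 60 min Nr4a2 read 11.36 and 12.13, so the 10 min rat was the lowest of the isoproterenol rats.

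Ccn1, a secreted matricellular protein of early growth responses, read 9.07 at 10 min, against 7.12 and 7.26 in the controls. The difference was 1.88 ± 0.21 (SE), with a limma adjusted p of 0.243. Gadd45g, a growth arrest and stress sensor, read 11.67 at 10 min, against 9.73 and 9.91 in the controls. For both genes the controls lay close together and the 10 min value stood more than 3-fold above the nearer one. The difference of Gadd45g was 1.85 ± 0.22 (SE), with a limma adjusted p of 0.243 that became 0.0433 when the prior variance followed intensity. Ccn1 read 10.32 at 30 min and 8.01 at 60 min, and Gadd45g read 12.88 and 12.51.

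Junb, a subunit of the AP-1 transcription factor, read 9.67 at 10 min, against 7.95 and 8.65 in the controls, and 12.67 and 12.44 at 30 and 60 min. Egr1, an early zinc finger transcription factor, read 8.30 at 10 min, against 7.0 and 7.29 in the controls, and 9.87 and 9.43 at the later times. Fos, the partner of Jun proteins in AP-1, read 5.68 at 10 min, against 4.94 and 4.58 in the controls, where it was not above background. Junb and Egr1 lay just past 2-fold above the nearer control, by 1.03 and 1.01, and Fos lay 0.73 above it. Where a probe was not above background in either control, a fold is given as a lower bound, computed against the higher of the probe's own value and the dimmest probe above background on each array. For Fos the bound was at least 1.54-fold. Among the arrays compared, Fos entered through the 10 min array alone, so a difference was built into its entry. The same holds, below, for Irs2, RT1-A2, Cyp24a1 and Bmal1, and the list counts include such genes. Fos read 7.25 at 30 min and 6.23 at 60 min.

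Dusp1, a phosphatase that switches off MAP kinases, read 12.34 at 10 min, against 9.53 in control 1 and 11.10 in control 2. The controls were 1.57 apart, the 10 min rat lay 1.24 above the higher one, and the limma adjusted p was 0.737. At 30 and 60 min Dusp1 read 14.37 and 14.42. Dusp1 was the only feedback regulator of MAP kinase signalling past the rule of size, which 0.246% of all tested probes passed upwards. Of the 12 tested members 3 lay above both controls and 4 below both, against 38.2% and 30.6% of all tested probes. Dusp7 read 7.04 at 10 min, against 6.34 and 6.49 in the controls, and Dusp10 read 4.44, against 5.10 and 5.01. The list's median difference was 0.18, and -0.13 without control 1.

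Rasd1, a small GTPase of the Ras family, read 10.39 at 10 min, against 8.57 and 8.23 in the controls. It differed from the control mean by 1.99 ± 0.24 (SE), with a limma adjusted p of 0.243. Its values at 30 and 60 min were 10.23 and 9.92, so the 10 min value was the highest of the 3 isoproterenol values. Irs2, an adaptor of the insulin receptor and a known CREB target, read 6.24 at 10 min, against 4.67 and 4.83 in the controls, where it was not above background. It stood at least 2.27-fold higher, with a limma adjusted p of 0.257, and read 7.71 and 6.09 at the later times. Because Irs2 entered the test through the 10 min array alone, this p is no independent support.

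**Figure D2:**
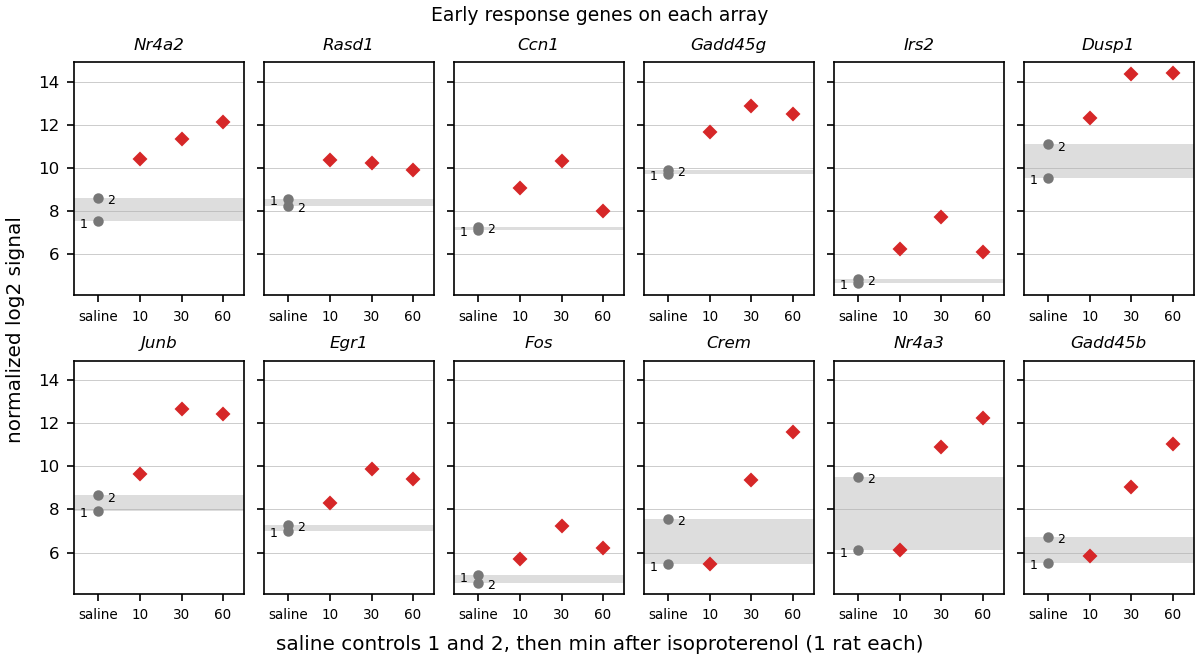
Each panel shows 1 gene (normalized log2 signal, vertical); grey circles are saline controls 1 and 2, the grey band spans them, and red diamonds are the single rats at 10, 30 and 60 min after isoproterenol. At 10 min Nr4a2, Rasd1, Ccn1, Gadd45g, Irs2, Dusp1, Junb, Egr1 and Fos lie above the band, while Crem, Nr4a3 and Gadd45b lie within it; at 30 and 60 min all 12 genes lie above it.

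Some other early genes were within the range of the controls at 10 min. A further 7 of the 29 tested immediate early genes lay below both. Ccn2 was the farthest below and read 8.87, against 10.1 and 9.5 in the controls. Crem, which encodes a cAMP-responsive transcription factor and its early repressor ICER, read 5.47 at 10 min, against 5.45 in control 1 and 7.56 in control 2, and 9.36 and 11.61 at 30 and 60 min. Nr4a3, another orphan nuclear receptor, read 6.14 at 10 min, against 6.10 and 9.52 in the controls, and 10.89 and 12.24 later. Gadd45b read 5.85, against 5.53 and 6.73, and 9.05 and 11.05 later. In Crem, Nr4a3 and Gadd45b control 2 was the higher control and lay above the 10 min rat. Ccn2, Nr4a3, Gadd45b and, below, Nfil3 were picked with their values in view.

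The same held for Nfil3, a leucine zipper repressor, which read 8.75 at 10 min, against 7.53 and 9.12 in the controls, and 10.93 and 11.78 later. The probe for Nr4a1 read 5.21, against 5.37 and 4.80, and 5.00 and 5.42 at the later times. Over the 18 tested cAMP and CREB target genes, 9 lay above both controls and 3 below both at 10 min, 4 passed the rule of size upwards and 1 downwards. Over all tested probes these shares were 38.2%, 30.6%, 0.246% and 1.12%. Their median difference was 0.32 at 10 min, and 2.08 and 1.69 at 30 and 60 min. With genes below background at their bound, the 10 min median was 0.2. The median difference of control 2 from control 1 over the same list was 0.25.

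The machinery upstream of CREB stood near the controls. Of 13 tested genes for beta receptors, G proteins and adenylyl cyclases, 4 lay above both controls and 4 below both. None passed the rule of size, and their differences ran between -0.85 for Adcy2, an adenylyl cyclase, and 0.34 for Grk2, a kinase that desensitizes the receptors. Adrb1, the beta-1 receptor, was below background on all 5 arrays and was not tested. Of 18 genes for cAMP effectors, phosphodiesterases and the CREB family, 5 lay above both controls and 5 below both. For both lists the shares of all tested probes were 38.2% above and 30.6% below. Prkar2b, a regulatory subunit of protein kinase A, read 10.31 at 10 min, against 9.79 and 9.96 in the controls.

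The 3 probes past the limma threshold were of another kind. Grpca is a glutamine and glutamic acid-rich protein first known from saliva of the rat submandibular gland. It read 11.69 at 10 min, against 6.35 and 6.16 in the controls. The difference was 5.43 ± 0.22 (SE), or 43.2-fold, with a limma adjusted p of 0.0355. The deposited signals were 3350 at 10 min, against 131 and 120 in the controls. Prr4, a proline-rich saliva protein, read 10.97 at 10 min, against 5.78 and 6.22 in the controls. Its difference was 4.97 ± 0.27 (SE), or 31.4-fold, with a limma adjusted p of 0.0468. Both transcripts were highest in the 10 min rat: Grpca read 5.27 and 6.81 at 30 and 60 min, and Prr4 read 6.07 and 7.52. At 30 min Prr4 lay between the controls and Grpca below both. In the 60 min rat Prr4 lay 1.30 above the nearer control, and Grpca also lay above both. The GRCr8 gene table lists Grpca as a synonym of Prr4, so the 2 probes may read the same gene or near-identical copies and are not independent.

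Other transcripts known from the rat submandibular gland, chosen after these values were seen, were set beside them. Smgc, submandibular gland protein C, was not above background on any of the 5 arrays and read 4.37 at 10 min, against 4.40 and 4.34 in the controls. The kallikrein Klk1c2 read 6.44 at 10 min, against 5.77 and 6.55 in the controls. Klk1c9 read 12.10, against 12.27 and 12.29, and Klk1b3 read 13.57, against 13.78 and 13.94. None of these 4 lay above both controls in the 10 min rat. Smr3a, a submaxillary gland androgen-regulated protein, did: it read 13.65, against 12.73 and 12.84. Klk1c9 and Klk1b3 were already bright in both controls, where a small added amount could hardly show. The source of the Grpca and Prr4 signal was not tested.

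RT1-A2 is a classical class I molecule of the rat major histocompatibility complex. It read 9.18 at 10 min, against 4.76 and 4.5 in the controls, where it was not above background. It stood at least 17.5-fold higher, with a limma adjusted p of 0.0468. Among the 3 arrays compared it entered the test through the 10 min array alone, so a difference was built into its entry and this p is no independent support. It read 8.81 at 30 min and 4.6 at 60 min, so the 5 rats fell on either side of a wide gap. Of the other 20 tested genes of antigen presentation 2 lay above both controls and 10 below both, against 38.2% and 30.6% of all tested probes. Their median difference was -0.23. Over all 21 tested members the median of control 2 minus control 1 was -0.41. The summed level of the 21 at 10 min, 17052, lay between those of the controls, 24185 and 15805. Cd74, the class II chaperone, read 7.48 at 10 min, against 8.73 and 8.32 in the controls. Class I genes of the rat are many, near-identical and variable between animals, so which copy the RT1-A2 probe reads is uncertain. When all 22517 probes were tested, limma called 0 probes, with 1471 at an unadjusted p under 0.05, and when only probes detected on all 3 arrays were tested it called 2.

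The remaining genes at least 2-fold above both controls were few, and none of them passed the limma test. Ggact, an enzyme that breaks down crosslinked glutamyl amines, read 8.39 at 10 min, against 6.86 and 7.07 in the controls, and 7.12 and 5.17 later. Fn3k, a kinase that repairs glycated proteins, read 8.54, against 7.40 and 7.10, and 6.97 and 6.72 later. These 2 were highest in the 10 min rat. Zcchc12, Cldn24 and Cyp24a1 also passed the rule and are named after their values were seen, and 7 of the 25 probes had no gene symbol. Zcchc12 read 10.76, against 9.25 and 9.74, Cldn24, a claudin of tight junctions, read 8.64, against 6.56 and 7.59, and Cyp24a1, which degrades vitamin D, read 5.68, against 4.57 and 4.66. Cyp24a1 was not above background in either control, and its bound was at least 1.54-fold.

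Clock genes stood on both sides of the controls. The circadian clock is a loop in which Bmal1 and its partners drive the Per and Cry repressors. Per1 read 6.87 at 10 min, against 8.45 and 8.87 in the controls, and Per2 read 6.33, against 8.32 and 8.0. Both stood at least 2-fold below both controls, by 1.57 and 1.67 on the log2 scale, with limma adjusted p-values of 0.258 and 0.253. Per1 is also a CREB target, and it read 9.91 and 11.09 at 30 and 60 min, while Per2 read 5.99 and 8.95.

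In the opposite direction, Bmal1 read 6.41 at 10 min, against 4.87 and 4.91 in the controls, where it was not above background, and stood at least 2.55-fold higher. Cry1 read 8.24, against 7.14 and 7.04. The output regulator Tef and, below, Nr1d1 were picked with their values in view. Tef read 5.77, against 6.95 and 6.78. Of 10 tested clock genes 2 passed the rule of size upwards and 3 downwards, against 0.246% and 1.12% of all tested probes. Limma called none of the 10. Bmal1, 1 of the 2 upwards, entered the comparison through the 10 min array alone, so a difference was built into its entry. Nr1d1, a repressor of Bmal1, read 8.83, against 9.46 and 9.86, and 8.48 and 6.84 at 30 and 60 min. No source used here gives the hour at which each rat was killed, so time of day and isoproterenol cannot be told apart for these genes.

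**Figure D3:**
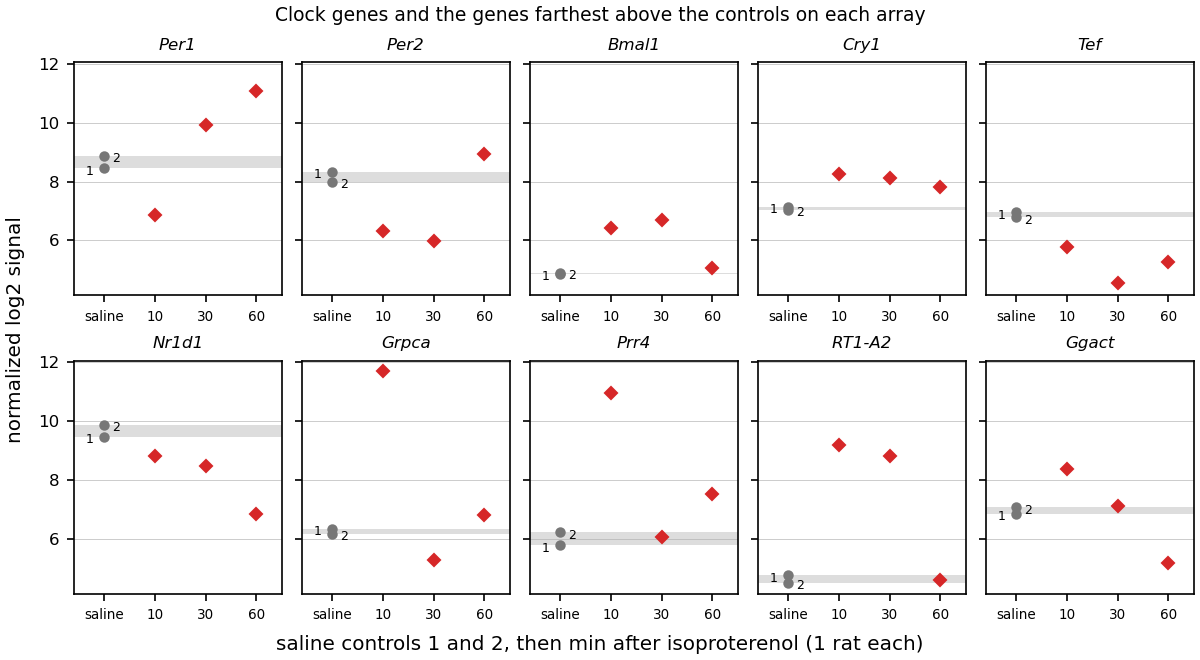
Each panel shows 1 gene (normalized log2 signal, vertical) with saline controls 1 and 2 as grey circles, their range as a grey band, and the single rats at 10, 30 and 60 min after isoproterenol as red diamonds. Per1, Per2, Tef and Nr1d1 lie below the band at 10 min and Bmal1 and Cry1 above it. Grpca and Prr4 read highest in the 10 min rat, Prr4 is also above the band at 60 min, and RT1-A2 is also high at 30 min.

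More probes stood below the controls than above them by the rule of size, and many of the named ones are transcripts of blood and connective tissue. Of the 114 probes at least 2-fold below both controls, 97 had a symbol, naming 96 genes. At 10 min 15 of the 114 probes were not above background, and for 7 of these the bound was under 2-fold, the lowest at 1.41. Of the 25 higher probes 5 have such a bound, under 2-fold for 2. Of the 96 lower genes 31 were on any of the gene lists, as were 520 of all 7268 tested genes. The lists were chosen with earlier results of these data known. Among the 31, 18 were fibroblast and matrix markers, 4 were red blood cell markers, 3 were clock genes and 2 were endothelial markers. None of the lower genes passed the limma test. In whole glands, fewer cells of a type and less RNA per cell cannot be told apart.

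Of 25 tested fibroblast and matrix markers 24 lay below both controls, against 30.6% of all tested probes, and 18 lay at least 2-fold below, against 1.12%. Their median difference was -1.51, and the median difference of control 2 from control 1 was -0.13. Their summed level, over normalized values on the linear scale, was 9712 at 10 min, against 32719 and 30827 in the controls. The members at least 2-fold lower numbered 18 without control 1 and 22 without control 2. Medians at 30 and 60 min were -1.02 and -1.47, so these markers stood low in all 3 isoproterenol rats.

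Col3a1, a fibrillar collagen of reticular fibres, read 7.62 at 10 min, against 9.94 and 10.04 in the controls. It differed by -2.37 ± 0.21 (SE), or 5.18-fold, with a limma adjusted p of 0.212, and read 8.62 and 8.46 later. Col1a1, the main chain of type I collagen, read 8.37, against 10.63 and 10.65, and Col1a2, its partner chain, read 11.78, against 13.94 and 13.81. For all 3 collagens the controls lay within 0.13 of each other or closer. Fn1, fibronectin, read 8.07, against 10.29 and 10.13. With a neqc offset of 50 in place of 16, limma called 10 probes, 7 of them lower, among them Col3a1 with an adjusted p of 0.0374 and Fn1 with 0.0489.

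Enzymes and smaller matrix proteins also stood below both controls at 10 min. Lox, which crosslinks collagen, read 5.74 at 10 min, against 7.64 and 7.72 in the controls, and Sparc, a collagen-binding glycoprotein, read 9.12, against 11.02 and 10.97. Ogn, a small proteoglycan, read 6.44, against 8.47 and 8.50. Ccdc80, a secreted matrix protein, read 7.94, against 9.83 and 9.79, and Gpx3, the extracellular glutathione peroxidase, read 7.84, against 9.67 and 9.68. In all 5 the 10 min rat lay more than 3-fold below the nearer control, with limma adjusted p-values of 0.227 to 0.243. At 30 min Ccdc80 and Gpx3 read 9.26 and 9.29, closer to the controls than at 10 min, and at 60 min they read 7.82 and 8.03.

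Globins were the lowest of the red blood cell markers relative to the controls. Hbb, a beta globin, read 10.90 at 10 min, against 13.65 and 13.43 in the controls. The difference was -2.64 ± 0.22 (SE), or 6.22-fold, with a limma adjusted p of 0.212. Hbb-b1 read 9.15, against 11.71 and 11.54, Hba-a3 read 7.16, against 9.29 and 9.32, and Hba-a1, an alpha globin, read 12.64, against 14.44 and 14.33. These 4 globins, whose probes may share near-identical transcripts, were the red cell markers past the rule of size. They were 4 of 10 tested markers, against 1.12% of all tested probes. Hbb read 12.87 and 13.31 at 30 and 60 min, and Hba-a1 read 13.85 and 13.91, so the 10 min rat was the lowest of the 5.

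The summed level of the 10 tested red cell markers was 9187 at 10 min, against 39188 and 35369 in the controls. Of the 10, 7 lay below both controls and 1 above both, against 30.6% and 38.2% of all tested probes. At 10 min 6 were above background, against 9 in each control. The median difference was -0.69, and -0.38 with markers below background at their bound. The 1 above both was Epb42, a membrane skeleton protein, at 5.56, against 5.36 and 5.38, named after its value was seen. How much of the lower signal of other blood-borne or vessel cells goes with this was not tested.

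Endothelial markers lay below both controls in 13 of 14 cases, against 30.6% of all tested probes, and 2 lay at least 2-fold below, against 1.12%. Vwf, the clotting carrier von Willebrand factor, read 5.54 at 10 min, against 6.70 and 7.24 in the controls, and Ramp2, a receptor partner of vessels, read 7.37, against 8.57 and 8.64. The list's median difference was -0.66, against -0.25 for control 2 minus control 1, and its summed level was 3890 at 10 min, against 6606 and 5624. Aqp1, a water channel of vessels and red cells, was the only fluid secretion gene past the rule and read 6.86, against 8.15 and 8.07.

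For the next 3 lists the share of all tested probes below both controls was again 30.6%. Markers of macrophages and mast cells lay below both controls in 11 of 12 cases, with a median difference of -0.73, against -0.42 for control 2 minus control 1, and with a summed level of 1532 at 10 min, against 3333 and 2387 in the controls. Of the 12, 7 were above background at 10 min, against 12 in control 1 and 10 in control 2. With markers below background at their bound the median difference was -0.59. C1qc, a complement chain made by macrophages, read 7.42, against 9.01 and 8.47. C1qa and C1qb read 7.46 and 7.81, against 8.91 and 8.23 for C1qa and 9.28 and 8.76 for C1qb. Myoepithelial and smooth muscle markers lay below both controls in 10 of 10 cases, with a median difference of -0.84, against -0.32 for control 2 minus control 1. Tagln, a smooth muscle actin-binding protein, read 6.66, against 7.88 and 7.70. Adipocyte markers lay below in 16 of 18 cases, with a median difference of -0.69, against -0.02 for control 2 minus control 1. Of the 18, 15 were above background at 10 min, against 18 in each control, and the median at the bound was -0.52. Cfd, the adipsin of fat cells, read 9.81, against 11.26 and 11.32.

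**Figure D4:**
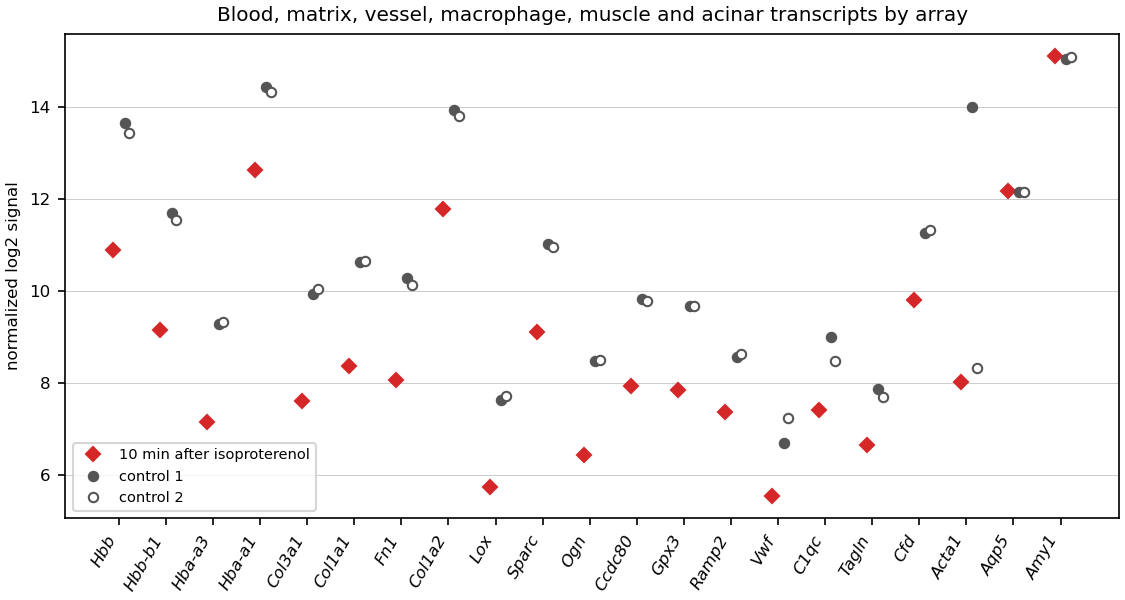
Normalized log2 signal (vertical) of blood, matrix, vessel, macrophage, muscle and acinar transcripts in the 10 min rat (red diamonds), control 1 (filled circles) and control 2 (open circles). Hbb, Col1a1, Col1a2 and the other blood and matrix transcripts lie far below both controls, Acta1 is high in control 1 alone, and Aqp5 and Amy1 coincide in all 3 rats.

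Skeletal muscle transcripts separated the controls rather than the treatment. Their median difference at 10 min was -2.21, but control 2 lay below control 1 as well, with a median of -4.64 for control 2 minus control 1. Acta1, skeletal actin, read 8.03 at 10 min, against 14 in control 1 and 8.32 in control 2, and 14.07 and 10.80 at 30 and 60 min. The summed level of 19 markers was 4225 at 10 min, against 61601 in control 1 and 5142 in control 2. It was 61992 at 30 min and 7746 at 60 min. None passed the rule of size, and without control 2, 17 would have. Cox8b, a muscle isoform of cytochrome oxidase, read 5.45, against 9.16 and 5.79, in the same pattern. Control 1 and the 30 min rat therefore stood apart from the other rats for muscle, and values of genes expressed in muscle are read here with both controls shown.

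Most listed saliva protein genes were close to the controls, in a list that does not hold Grpca and Prr4. Of 18 saliva protein genes 6 lay above both controls and 6 below both, 0 passed the rule of size and the median difference was 0.02. However, 7 of the 18 lay within 1 of the top of the scale, 15.32, on all 3 arrays, where a higher level could hardly show. Smr3a, given above, lay farthest above the controls on this list. Vesicle trafficking and exocytosis genes had 7 above and 6 below both controls of 19. For this list and the saliva list, the shares of all tested probes were 38.2% above and 30.6% below. Rab3d, a GTPase of zymogen granules, read 12.62, against 12.16 and 12.39. Xbp1, a transcription factor of secretory cells, read 13.87, against 13.52 and 13.49.

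Genes of the unfolded protein response and ER chaperones stood above the controls more often than below, with 14 of 23 above both controls and 3 below, against 38.2% and 30.6% of all tested probes, but 0 passed the rule of size. Ppp1r15a, a phosphatase subunit that restores translation under stress, was the farthest above and read 8.16 at 10 min, against 7.16 and 7.27 in the controls. Pdia3, a protein disulfide isomerase, read 10.63, against 10.27 in each control. Polyamine and ribosome biogenesis genes had 11 of 19 above both controls, and Odc1, the first enzyme of polyamine synthesis, read 10.00, against 9.40 and 9.50. These differences were small, and the limma adjusted p was 0.522 for Ppp1r15a and 0.814 for Odc1.

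Inflammatory and interferon-induced genes stood below the controls more often than above, with no member past the rule of size. Of 11 inflammatory and NF-kB target genes 9 lay below both controls and 0 above both, against 30.6% and 38.2% of all tested probes, and the median difference was -0.36, against -0.28 for control 2 minus control 1. Vcam1, an adhesion molecule of activated vessels, read 5.30 at 10 min, against 6.29 and 6.01 in the controls. Of 16 interferon-induced genes 10 lay below both controls and 0 above both. Control 2 also lay below control 1 for the interferon list, by a median difference of -0.44. Heat shock, hypoxia, ductal and reference gene lists had medians between -0.08 and 0.03. Cytosolic ribosomal protein and mitochondrial respiratory chain genes both had a median difference of -0.05, over 59 and 53 tested members.

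**Figure D5:**
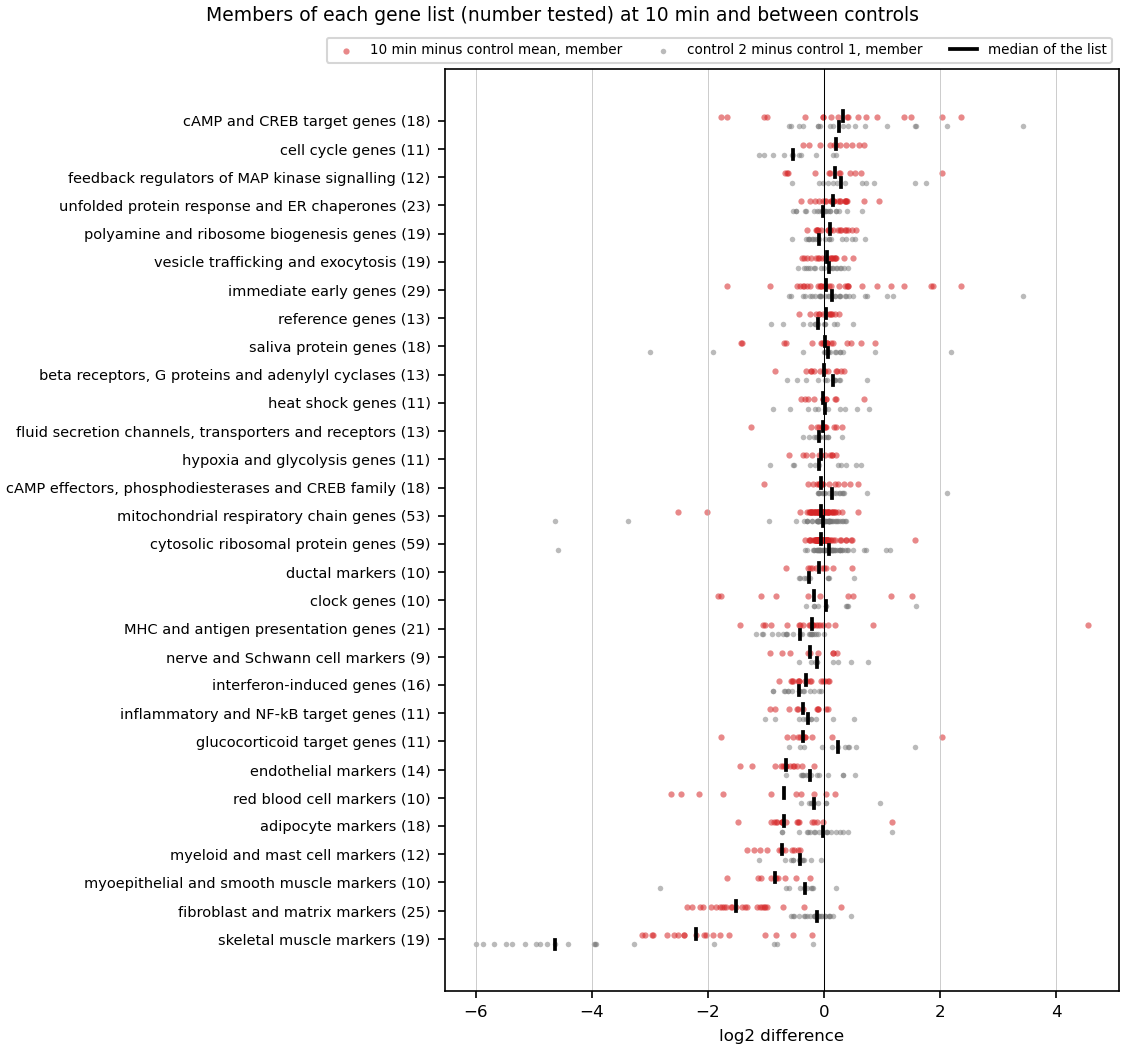
Log2 differences (horizontal) of the tested members of each gene list with 9 or more of them, the number tested in brackets; red points are the 10 min rat minus the control mean, grey points are control 2 minus control 1, and black bars are list medians. Fibroblast and matrix markers lie lower at 10 min while the controls differ little, whereas skeletal muscle markers differ most between the controls.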

How the data were processed

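Per the labels' protocols, parotid RNA was copied into biotin-labelled cRNA; each rat has 1 Illumina array. For 22517 probes the authors deposited a linear intensity with its detection p-value. The table is called non-normalized, but the sorted intensity values of the 5 arrays differed by a median range of 0.133%. The smallest intensity was 43.1. The authors also deposited processed values that resemble log2 values (median 6.0 on each array, in the rank order of the intensity). Their transform and the software of both tables are not given in the sources used here.

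Intensities were background-corrected by normexp from the detection p-values, with 16 added as offset, then quantile normalized and log2-transformed (neqc, limma 3.58.1, R 4.3.3). All 5 arrays were fitted with lmFit and eBayes, with 1 mean per group, which left 1 residual degree of freedom and added 3.719 prior ones (prior SD 0.1881). Probes with a detection p-value under 0.01 on at least 1 of the 3 arrays compared were tested, and 12342 were left out. P-values were two-sided and adjusted by Benjamini-Hochberg over the tested probes, at 0.05. They rest on the spread between the 2 controls and on the prior, and the single isoproterenol rats add no spread. The number of arrays limits the precision.

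Of 13787 probes with a symbol in the platform annotation, 13747 matched the GRCr8 gene table. Lists used the brightest tested probe of a gene. The members and the 33 gene lists were chosen with earlier results of these data known. The text names probes past the limma threshold, the 12 genes per direction farthest beyond the nearer control, and up to 4 members of each list, and says where a gene was chosen otherwise. Alternatives covered the offset, the background correction, the scaling, the authors' values, the filters, the prior variance and each control left out.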

Additional observations from a re-analysis of the deposited data

Results flagged for a closer look

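Per1 and Ggact lay on opposite sides of both controls at 10 min and later. Per1 stood 1.57 below the nearer control at 10 min on the log2 scale (-1.57), and 1.04 above the nearer control at 30 min and 2.23 above it at 60 min. Ggact stood 1.33 above the nearer control at 10 min and was at -1.70 from the nearer control at 60 min. Each time is 1 rat, the times share the controls, and the difference was not tested.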

How the results depend on the processing

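The limma fit called 3 probes in the settings reported, 10 with an offset of 50, 8 with no background correction, 5 with the authors' processed values, 13 with a prior variance that followed intensity, and 0 with no filter on dim probes, where 1471 probes had an unadjusted p under 0.05. Probes at least 2-fold above both controls numbered 25, against 14 with an offset of 50, 11 with no background correction and 11 with the authors' values, and 113 at 1.5-fold. Probes at least 2-fold below both controls numbered 114, against 64, 60 and 58 in the same 3 settings, 329 at 1.5-fold and 201 when measured from the control mean. Leaving out 1 control gave 46 to 72 probes above and 153 to 336 below, as values with no test, since no residual degrees of freedom remain. Grpca, Prr4 and RT1-A2 passed under each refit that kept the filter, with adjusted p-values of 0.00447 to 0.0481. The offset, the background correction, the authors' values and the prior variance brought named genes past the threshold 24 times in all, and no named gene changed direction past a threshold. Of the list medians under the alternatives, 213 moved by no more than a set limit and 51 by more. The limit was the size of the list's median difference between the controls, divided by the square root of 2. It does not measure how far single members differed between the controls. The counts of list members without 1 control were added after seeing the data. The cause of these shifts was not tested, except that fewer or more probes tested changes the adjustment. No paired analysis was possible because each isoproterenol time has 1 rat and the labels give it no replicate number.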

Other observations

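The probes for Rps9 and Vcsa2 differed widely between rats without following the groups, and were picked with their values in view. The probe for Rps9, a ribosomal protein, read 12.12 at 10 min, against 12.84 in control 1 and 8.26 in control 2, and 7.44 and 7.55 at 30 and 60 min. The probe for Vcsa2 read 4.48 at 10 min, against 7.42 and 4.41 in the controls, and was above background in control 1 alone.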
